A study of Drosophila melanogaster with 12 samples.

Results

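The gut of nub1 females was compared with the rest of their body, the carcass, on 6 of the 12 arrays of the series. The series held nub1 gut, nub1 carcass, wild-type (wt) gut and wild-type carcass, each measured on 3 arrays. The 3 arrays of a group came from independent pools of 20 females aged 7 to 12 days, kept with males and given no treatment. Whether the gut and carcass of a genotype came from the same pools is not stated. The nub1 strain was nub1 b1 pr1, so black and purple were mutated together with nub, and the wt samples are labelled OregonR and w1118, where the design text names OregonR alone. The study describes nub1 as an allele that lacks the shorter isoform Nub-PD and still makes the longer isoform Nub-PB. Both nub1 groups carried the same alleles, and the wt groups differed from them in black, purple and strain background as well as in nub. Carcass was the fly without head and gut.

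RNA levels were read on Affymetrix Drosophila Genome 2.0 arrays as MAS5 signal, a linear fluorescence intensity summarised over the probes of a probe set and scaled to the same mean on every array. Of 18769 probe sets that were not array controls, 9436 had a signal of at least 10 on all 3 arrays of nub1 gut, of nub1 carcass or of both, and these were compared as log2(signal + 10) with limma. Of the 9436, 7988 probe sets passed this minimum in both tissues, 860 through gut alone and 588 through carcass alone. At the edge of the rule, Dscam1 was just inside with a lowest gut signal of 10.01 and CG31121 was just outside with a lowest carcass signal of 9.99. A probe set was called when its adjusted p was under 0.05 and its fold at least 2. A fold given as at least N is the geometric mean of the brighter tissue over a signal of 10, used where the dimmer tissue was below 10 on all 3 arrays.

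The adult fly gut digests food with secreted proteases, carbohydrases and lipases made by enterocytes, lines its lumen with a chitin-and-protein peritrophic matrix, acidifies its middle portion through copper cells and signals through peptides of enteroendocrine cells. The carcass of a female holds the thoracic muscles, the fat body, the epidermis and the reproductive tract, where follicle cells of the ovary make the eggshell. The nub gene encodes the POU-domain factor Pdm1, which is used as a marker of enterocytes.

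The probe set that represents nub showed signals of 420.3, 385 and 566 in nub1 gut, against 8.42, 3.55 and 3.56 in nub1 carcass, a difference of at least 45.0-fold (log2 fold change 4.94, SE 0.19, adjusted p = 1.13e-09). All 3 gut arrays lay above all 3 carcass arrays. In pooled tissue, fewer cells of a type and less RNA per cell cannot be told apart. In wt the same probe set read 282, 203 and 317 in gut and 5.38, 3.42 and 5.49 in carcass, and the gut-over-carcass difference in nub1 exceeded that in wt by 0.73, SE 0.27, adjusted p = 0.0975, and was not called. The files do not assign this probe set to 1 isoform, and another 2 probe sets of nub stayed below 10 on every nub1 array. Purple, the gene of an enzyme of eye pigment synthesis, had signals of 124, 134 and 135 in nub1 gut, against 139, 127 and 134 in nub1 carcass, not called (log2 fold change -0.02, SE 0.08, adjusted p = 0.801), and of 266, 235 and 246 in wt gut and 324, 345 and 335 in wt carcass. No probe set was named for black.

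Of the 9436 probe sets compared between nub1 gut and nub1 carcass, 1476 were called higher in gut (15.6%), representing 1312 named genes, and 2146 in carcass (22.7%), representing 1900. Gut differences were larger, with a median of 2.17 on the log2 scale among calls in gut and 1.29 among calls in carcass, and 295 gut calls but 28 carcass calls reached 16-fold. The carcass was below 10 on all 3 arrays for 354 of the gut calls, and the gut was below 10 on all 3 arrays for 59 of the carcass calls. The arrays of the tissues did not overlap for 7919 probe sets (83.9%), so a lack of overlap by itself sets few probe sets apart. With 1 probe set a gene, 1293 of 7824 genes were called higher in gut (16.5%) and 1872 in carcass (23.9%), and the gene lists below can be read against these shares. A list member that passed the minimum through 1 tissue alone was bound to be brighter there. The median over all tested probe sets was -0.46 on the log2 scale, and quantile normalization moved it by 0.12, so small differences depend on the scaling.

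**Figure D1:**
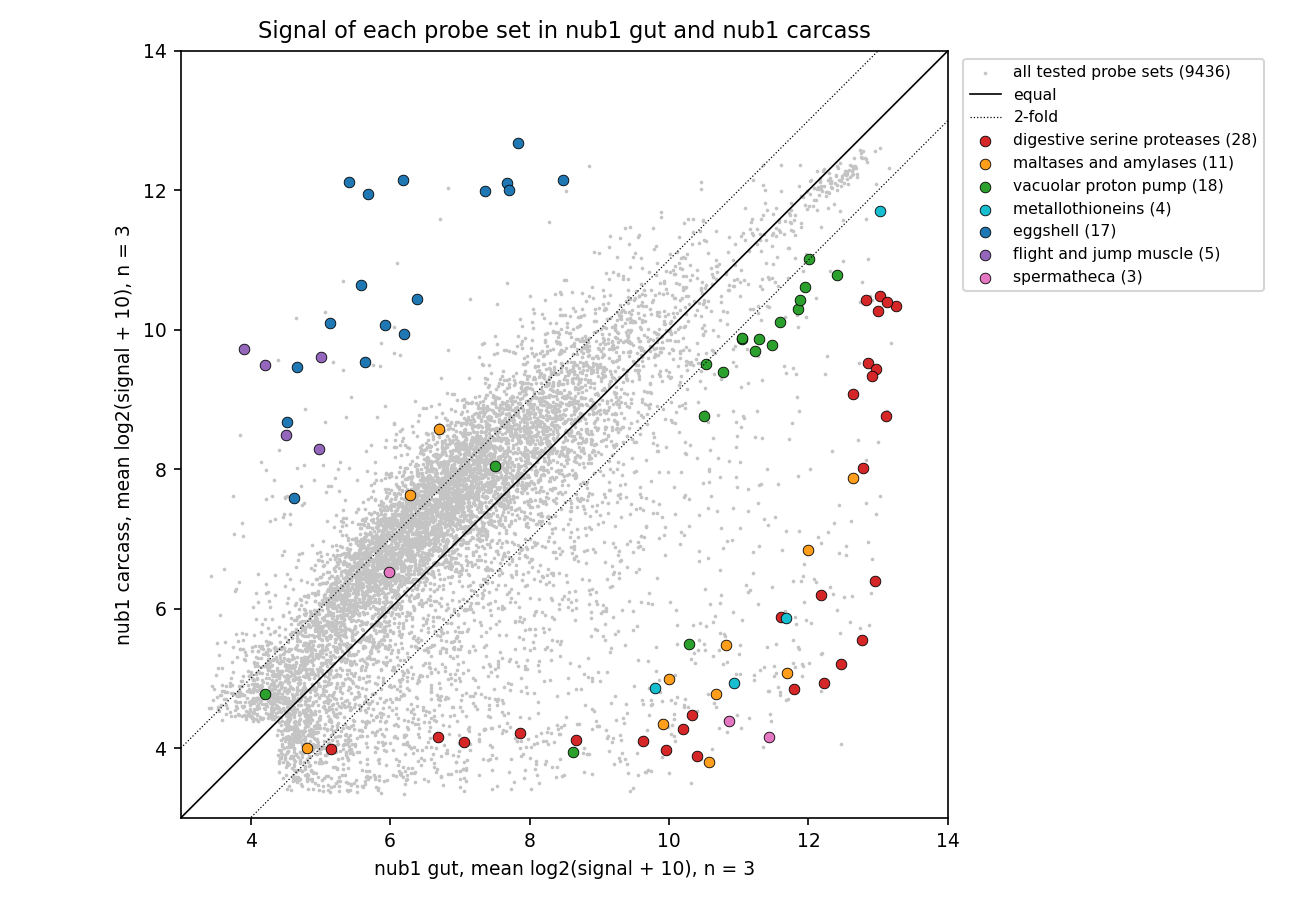
Each point is 1 probe set, with the mean log2(signal + 10) of the 3 nub1 gut arrays on the x axis and of the 3 nub1 carcass arrays on the y axis. Grey points are all 9436 tested probe sets, coloured points are the tested members of 7 gene lists, and dotted lines mark a 2-fold difference. Digestive serine proteases lie far to the lower right, eggshell and flight muscle genes to the upper left, and most proton pump genes close to the 2-fold line.

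Not all arrays of a group were alike. Over the tested probe sets nub1 gut arrays correlated at 0.950 to 0.987 among themselves, nub1 carcass arrays at 0.986 to 0.991, and gut with carcass at 0.585 to 0.755. The median SD across arrays was 0.23 log2 in gut and 0.098 in carcass. On the first principal component, which held 93.6% of the variance, gut arrays 1, 2 and 3 lay at 85.3, 49.3 and 85.7 and the carcass arrays at -69.0, -78.3 and -73.0, so gut array 2 stood nearest to the carcass. Gut array 2 carried the highest gut signal for 120 of the 132 carcass-called probe sets with a mean carcass signal above 1000, and carcass array 1 carried the highest carcass signal for 204 of the 328 gut-called probe sets with a mean gut signal above 1000. The results that rest on these arrays are given below with and without them.

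Digestive proteases were bright in gut. Of 33 listed trypsins, chymotrypsin-like Jonah proteases and related serine proteases, 28 had a probe set of their own, all 28 passed the signal minimum (12 through gut alone), and 28 were called higher in gut and none in carcass, with a median log2 fold change of 4.46 and a range of 1.16 to 7.29. Without carcass array 1, 27 were called. Their carcass signals differed widely. Jon65Ai had 7941, 5453 and 7771 in nub1 gut, against 153, 14.2 and 16.3 in nub1 carcass (log2 fold change 7.21, SE 0.54, adjusted p = 2.65e-07). Its relative Jon65Aiv had 8936, 6476 and 9939 in nub1 gut, against 1385, 1167 and 1789 in nub1 carcass, a smaller difference (log2 fold change 2.54, SE 0.22, adjusted p = 9.04e-07) from a comparable gut level. All carcass arrays were low for the first and all were above 1000 for the second. The trypsins also differed in this way, and lambdaTry had 5255, 3889.6 and 5254 in nub1 gut, against 77.6, 3.73 and 13.4 in nub1 carcass (log2 fold change 7.29). The trypsin alphaTry had 10416, 8012 and 11116 in nub1 gut, against 1256, 997 and 1704 in nub1 carcass (log2 fold change 2.91). Near-identical paralogs such as alphaTry and betaTry, or Jon65Aiii and Jon65Aiv, may share RNA on these probes. The lowest fold of the list belonged to Try29F, at 30.6, 21.0 and 25.8 in nub1 gut, against 2.29, 8.94 and 7.30 in nub1 carcass.

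The 15 genes with the largest gut differences ranged from a log2 fold change of 6.87 for CG8560 to 8.41 for Acbp3, a small protein of the acyl-CoA binding family. Acbp3 had 6101, 4596 and 6449 in nub1 gut, against 22.04, 3.41 and 0.700 in nub1 carcass (log2 fold change 8.41, SE 0.31, adjusted p = 8.1e-10). CG10472 had 8985, 5636 and 8328 in nub1 gut, against 161, 19.0 and 21.9 in nub1 carcass, and CG11911 had 7799, 5368 and 7592 in nub1 gut, against 172, 13.5 and 24.7 in nub1 carcass. Both are serine protease genes, and for both carcass array 1 was well above the other carcass arrays. The order of the carcass arrays was not the same for all such genes. Ser12 had 3873, 2890.5 and 3957 in nub1 gut, against 1.10, 18.7 and 64.3 in nub1 carcass, and CG31681 had 5101, 3675 and 5352 in nub1 gut, against 1.006, 19.2 and 60.2 in nub1 carcass, so for both the lowest carcass signal was on array 1 and the highest on array 3. Of the 28 listed proteases, 12 were highest in carcass on array 1, 3 on array 2 and 13 on array 3. The remaining genes among the 15 were CG15533, Send1, Jon44E, CG31041, CG11912, CG18493 and CG15255.

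Carbohydrate-digesting enzymes followed the proteases with 2 exceptions. Of 13 listed maltases and amylases, 11 were measured and passed the minimum (4 through gut alone), 8 were called higher in gut, 2 in carcass and 1 in neither, with a median of 5.16. The maltase gene Mal-A4 had 3950.1, 2450.3 and 3665 in nub1 gut, against 53.8, 9.06 and 21.4 in nub1 carcass (log2 fold change 6.61, SE 0.35, adjusted p = 1.13e-08). Its cluster neighbour Mal-A5 went the other way, with 62.5, 139 and 94.7 in nub1 gut, against 391, 347 and 376 in nub1 carcass (log2 fold change -1.87, SE 0.20, adjusted p = 5.79e-06), and Mal-B2 likewise with 59.1, 84.3 and 62.2 in nub1 gut, against 204, 241 and 135 in nub1 carcass (log2 fold change -1.35, SE 0.18, adjusted p = 2.77e-05). Gut and carcass arrays did not overlap for either gene. Mal-B1 read 21.0, 14.7 and 18.9 in nub1 gut, against 13.9, 5.74 and 0.979 in nub1 carcass and did not reach 2-fold.

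Lipid digestion was represented by 4 genes, all tested (2 through gut alone). The lipase gene magro, a digestive lipase that also hydrolyses cholesterol esters, had 4446, 2999.7 and 4440.2 in nub1 gut, against 82.4, 23.6 and 93.9 in nub1 carcass (log2 fold change 5.83, SE 0.34, adjusted p = 2.87e-08). Lip3 had 940.0, 696 and 744 in nub1 gut, against 18.3, 2.12 and 6.67 in nub1 carcass (log2 fold change 5.48, SE 0.26, adjusted p = 4.35e-09). Lip4 was higher in carcass, with 35.8, 49.2 and 61.0 in nub1 gut, against 105, 100.2 and 145 in nub1 carcass (log2 fold change -1.12), a call that ended without gut array 1, without carcass array 3 and after quantile normalization. Of the 3 lysozymes measured of 7, LysS and LysX were called higher in gut and LysP in carcass (2 passed through gut alone). LysS had 96.4, 62.1 and 83.0 in nub1 gut, against 9.30, 16.1 and 7.80 in nub1 carcass (log2 fold change 2.10, SE 0.22, adjusted p = 4.9e-06). LysP, a lysozyme expressed in the adult salivary gland, had 16.3, 191 and 45.2 in nub1 gut, against 415, 414 and 352 in nub1 carcass, with gut array 2 above the other gut arrays.

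Genes of the gut lining were also mostly higher in gut. Among 11 peritrophic matrix and chitinase genes, 10 were measured, 8 passed the minimum and 7 of these were called higher in gut, none in carcass (median 2.99; 2 passed through gut alone and 1 through carcass alone). Peritrophin-15a, a chitin-binding matrix protein, had 5748, 3821 and 5834 in nub1 gut, against 109, 36.4 and 80.9 in nub1 carcass (log2 fold change 5.99, SE 0.29, adjusted p = 5.15e-09). The mucin-like gene Mur18B had a level in carcass too, with 4053, 2967 and 3521 in nub1 gut, against 650.4, 693 and 725 in nub1 carcass (log2 fold change 2.32, SE 0.13, adjusted p = 1.71e-08). Peritrophin-A was not called, at 17.5, 5.39 and 7.99 in nub1 gut, against 17.9, 21.5 and 21.1 in nub1 carcass, and Muc18B and Cht9 were below the minimum on at least 1 array of each tissue.

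The vacuolar proton pump, which acidifies compartments and drives epithelial transport, was higher in gut by a small factor for most subunits. Of 20 listed subunits and accessory proteins, 18 were measured and tested (1 through gut alone and 1 through carcass alone), 15 were called higher in gut and none in carcass, with a median of 1.44. Vha16-1, a subunit of the membrane ring, had 5999, 4271 and 6237 in nub1 gut, against 1759, 1559.8 and 1956 in nub1 carcass (log2 fold change 1.63, SE 0.15, adjusted p = 1.44e-06). The a subunits, which set where the pump is placed, differed more among themselves. Vha100-4 had 386, 286 and 506 in nub1 gut, against 9.56, 3.96 and 3.32 in nub1 carcass, at least 38.2-fold (log2 fold change 4.67), and Vha100-5 had 1355, 950.3 and 1483 in nub1 gut, against 38.9, 29.0 and 38.2 in nub1 carcass (log2 fold change 4.79). Vha100-2 differed by only 1.02, and Vha100-1 lay lower in gut without reaching 2-fold, at 161, 174 and 182 in nub1 gut, against 260.2, 249.98 and 256 in nub1 carcass. After quantile normalization 7 subunits rather than 15 were called.

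Metallothioneins, small metal-binding proteins of the copper and heavy-metal response, were called higher in gut for 4 of 4 measured genes of 5 (median 5.37; 2 passed through gut alone). MtnC had 3539, 3255 and 2982 in nub1 gut, against 107, 20.6 and 45.3 in nub1 carcass (log2 fold change 5.81, SE 0.36, adjusted p = 5.02e-08). MtnA was bright in both tissues, with 8775, 7195 and 9065 in nub1 gut, against 3364, 3591 and 3052 in nub1 carcass (log2 fold change 1.32, SE 0.11, adjusted p = 8.63e-07). MtnB had 643, 1433 and 739 in nub1 gut, against 56.9, 9.12 and 9.26 in nub1 carcass (log2 fold change 4.93), with gut array 2 highest. For all but MtnA the highest carcass signal was on array 1.

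Detoxification families leaned to the gut. Of 81 cytochrome P450 genes 64 passed the minimum, 13 through gut alone and 2 through carcass alone. Of these 64, 41 were called higher in gut and 5 in carcass (median 1.67). For glutathione S-transferases 32 of 34 passed, 4 through gut alone and 2 through carcass alone. Of the 32, 16 were called higher in gut and 3 in carcass (median 1.09). For UDP-glycosyltransferases 26 of 35 passed, 13 of them through gut alone, with 18 called higher in gut and 1 in carcass (median 1.94). Without gut array 3, 3 P450 genes and no UDP-glycosyltransferase were called in carcass. Cyp6g1, whose overexpression gives DDT resistance, had 1336, 926 and 1363 in nub1 gut, against 203, 209 and 156 in nub1 carcass (log2 fold change 2.60, SE 0.17, adjusted p = 9.32e-08). Cyp9b2 had 4837, 3204 and 4621 in nub1 gut, against 297, 185 and 274 in nub1 carcass (log2 fold change 4.02, SE 0.21, adjusted p = 1.12e-08). The largest transferase difference was that of GstD10, with 866, 439.9 and 735 in nub1 gut, against 11.3, 11.4 and 23.6 in nub1 carcass (log2 fold change 4.74). Cyp18a1, the enzyme that inactivates ecdysteroid hormone, was the P450 with the strongest carcass side, at 14.3, 65.6 and 17.5 in nub1 gut, against 228, 185 and 267 in nub1 carcass (log2 fold change -2.66, SE 0.33, adjusted p = 1.49e-05).

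Regulators of gut identity were dim, and mostly higher in gut. Of 13 transcription factor genes of midgut and hindgut, 12 were measured and 11 tested, 9 of them through gut alone. Of the 11, 9 were called higher in gut, 1 in carcass and 1 in neither (median 2.16). GATAe, the GATA factor of the midgut endoderm, had 220.1, 139 and 206 in nub1 gut, against 8.15, 8.48 and 9.02 in nub1 carcass, at least 18.5-fold (log2 fold change 3.39, SE 0.17, adjusted p = 6.49e-09). The progenitor factor escargot had 124, 79.6 and 147 in nub1 gut, against 1.47, 3.65 and 7.07 in nub1 carcass, at least 11.3-fold (log2 fold change 3.15), and pdm2, the paralog of nub, had 26.2, 20.6 and 33.7 in nub1 gut, against 5.89, 3.69 and 0.792 in nub1 carcass. Serpent, a GATA factor of fat body and blood cells that also acts in endoderm, was higher in carcass, with 51.4, 113 and 57.2 in nub1 gut, against 310.4, 243 and 257 in nub1 carcass (log2 fold change -1.81, SE 0.26, adjusted p = 5.23e-05). Sox21a was not called, at 35.0, 16.7 and 35.2 in nub1 gut, against 7.43, 19.2 and 20.9 in nub1 carcass. The hindgut factor byn read 21.5, 16.3 and 8.30 in nub1 gut, against 4.03, 0.708 and 0.950 in nub1 carcass and failed the minimum on gut array 3.

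Peptide genes of enteroendocrine cells were called higher in gut for 6 of 7 measured genes of 9 (median 2.25; 4 passed through gut alone). AstC had 1164, 723 and 989.7 in nub1 gut, against 28.5, 9.54 and 11.9 in nub1 carcass (log2 fold change 5.22, SE 0.23, adjusted p = 3.16e-09), and CCHa2, which is also made by fat body, had 619.8, 501 and 494 in nub1 gut, against 69.7, 46.9 and 44.3 in nub1 carcass (log2 fold change 3.12). NPF was below 1 on every carcass array, with 141, 84.6 and 137 in nub1 gut, against 0.930, 0.715 and 0.819 in nub1 carcass, at least 11.8-fold (log2 fold change 3.57). Orcokinin was not called, at 25.4, 28.8 and 36.3 in nub1 gut, against 20.7, 18.7 and 20.8 in nub1 carcass. Of 5 measured genes of progenitor signals, 3 were tested, and eiger, the fly tumour necrosis factor, was the one called, with 81.6, 71.8 and 100.3 in nub1 gut, against 25.0, 26.2 and 31.4 in nub1 carcass (log2 fold change 1.33, SE 0.14, adjusted p = 3.6e-06). Keren, an epidermal growth factor ligand, read 88.5, 97.2 and 110.4 in nub1 gut, against 94.0, 95.0 and 104 in nub1 carcass, and upd1 and upd2 were below 10 on all 6 arrays.

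Renal transport genes, listed as markers of Malpighian tubules, were called higher in gut for 10 of 12 tested genes of 14 listed (median 1.21; 3 passed through gut alone), and neither label nor methods say whether tubules stayed with the gut. Irk2, a potassium channel, had 560.0, 405 and 659 in nub1 gut, against 33.6, 37.6 and 39.5 in nub1 carcass (log2 fold change 3.53, SE 0.17, adjusted p = 6.54e-09), and the organic anion transporter Oatp58Dc had 462, 316 and 369 in nub1 gut, against 51.9, 67.3 and 57.0 in nub1 carcass (log2 fold change 2.50). The water channel gene Prip read 1111, 1277 and 1094 in nub1 gut, against 1348, 1393 and 1440.4 in nub1 carcass and was not called.

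**Figure D2:**
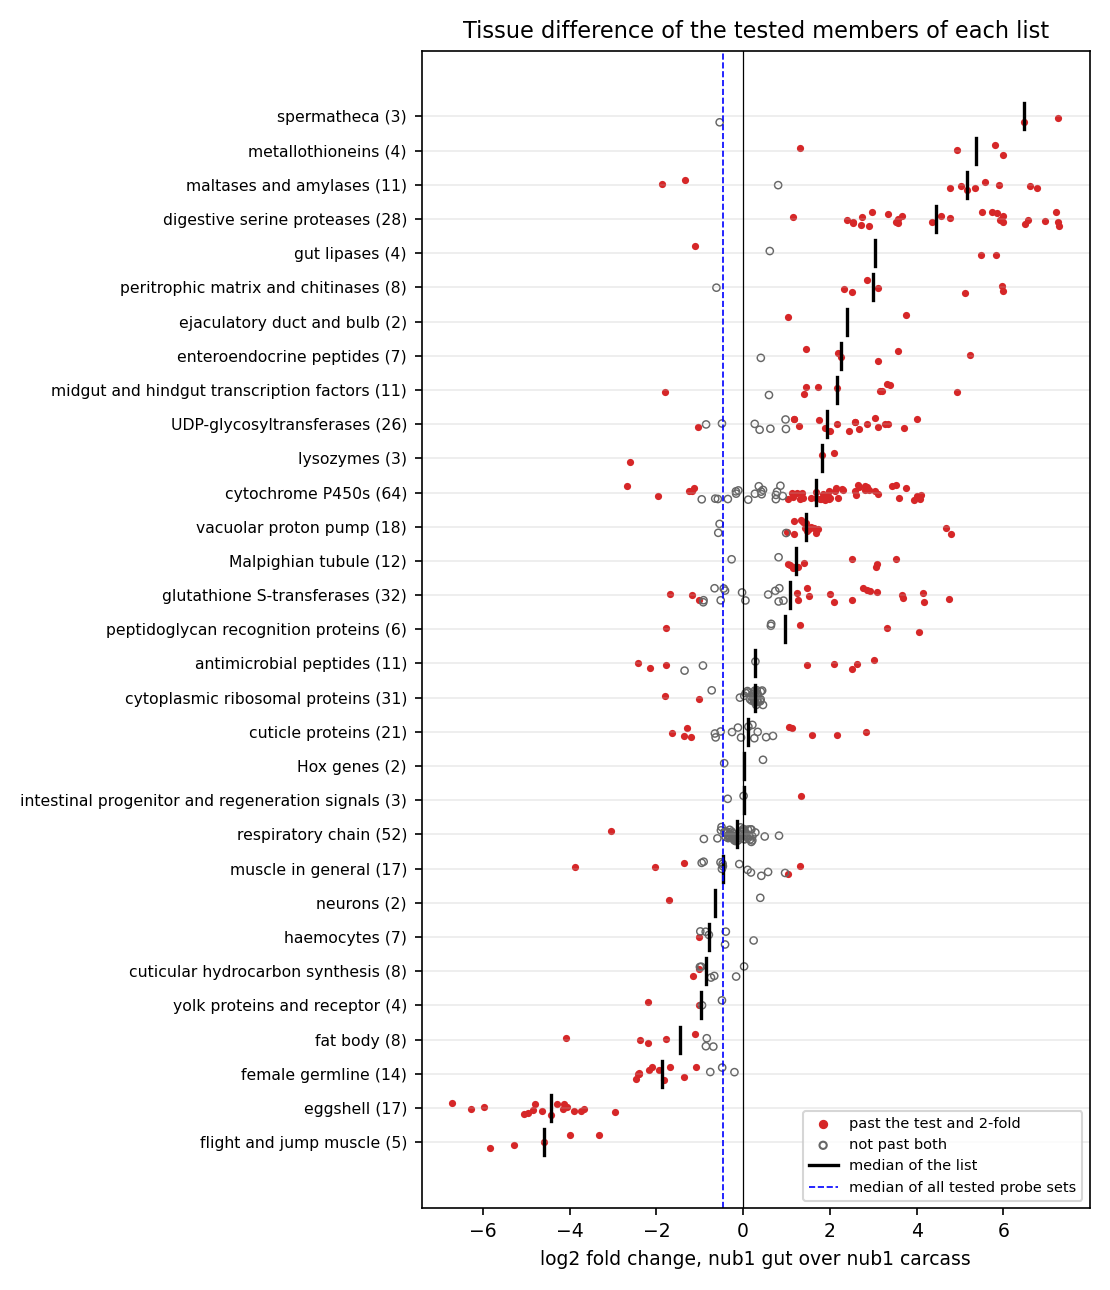
Each row is a gene list with the number of tested members in brackets, each point the log2 fold change of nub1 gut over nub1 carcass for 1 gene, red where called, and the black bar is the median of the list. The dashed line marks the median of all tested probe sets at -0.46. Lists run from flight muscle and eggshell at the bottom (medians -4.60 and -4.43) to spermatheca at the top (6.47). Of the 3 tested spermatheca genes, 2 passed the minimum through gut alone.

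Eggshell genes were among the largest carcass differences, and Cp16, Cp18, Cp19, Vm32E, dec and Vm34Ca stood among the top 15. Of 21 listed chorion and vitelline membrane genes, 17 were measured and passed the minimum, 13 of them through carcass alone, and all 17 were called higher in carcass, with a median of -4.43. Cp16, a late chorion protein, had 1.71, 264 and 13.7 in nub1 gut, against 4612, 4432 and 4232 in nub1 carcass (log2 fold change -6.71, SE 1.69, adjusted p = 0.00293). The vitelline membrane gene Vm34Ca had 20.7, 1962 and 185 in nub1 gut, against 5867, 6649.9 and 7235 in nub1 carcass (log2 fold change -4.85, SE 1.54, adjusted p = 0.0114), a call that ended without gut array 1 (adjusted p = 0.0565 by limma). Carcass signals were even, while gut signals were lowest on array 1 and highest on array 2 for 17 of 17 genes. The closest approach was Cp15, with 23.9, 4051 and 324 in nub1 gut, against 4110.1, 4499 and 5067 in nub1 carcass (log2 fold change -3.67, SE 1.57, adjusted p = 0.0462). Summed over the 17 genes, the signal was 141, 17027 and 1188 on gut arrays 1, 2 and 3, against 42599.9, 45414 and 46214 on the carcass arrays. The median of the list was -6.05 without gut array 2, with 17 calls, and -3.41 without gut array 1, with 12 calls. Without gut array 3 there were 13 calls, and without any 1 of the carcass arrays 14. When gut arrays 1 and 3 were both left out, 3 calls remained.

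Transcripts of the female germline lay on the same side with smaller differences. All 14 measured genes of 16 were tested, 11 were called higher in carcass and none in gut (median -1.88). The posterior determinant oskar had 377.2, 1259 and 259 in nub1 gut, against 2190.2, 2124 and 2235 in nub1 carcass (log2 fold change -2.11, SE 0.49, adjusted p = 0.00179), and bicoid, the anterior determinant, had 147, 219 and 133 in nub1 gut, against 589.8, 568 and 479.9 in nub1 carcass (log2 fold change -1.68, SE 0.16, adjusted p = 1.98e-06). Gut array 2 was highest among the gut arrays for 12 of the 14 genes. The count fell to 7 when gut arrays 1 and 3 were left out. The germline markers vasa and tudor were not called, with vasa at 6.33, 6.62 and 6.12 in nub1 gut, against 13.0, 10.5 and 15.3 in nub1 carcass. Tudor read 282, 279 and 329 in nub1 gut, against 362, 307 and 356 in nub1 carcass. The yolk receptor gene yl, expressed in oocytes, had 112, 276 and 108 in nub1 gut, against 730.4, 673 and 764 in nub1 carcass (log2 fold change -2.19). The yolk protein genes, used in fat body and follicle cells, were bright on all arrays. Of the 4 genes, yl and Yp2 were called higher in carcass, and without gut array 1 or carcass array 3 the Yp2 call ended. Yp1 read 2910.0, 3932 and 4649.5 in nub1 gut, against 4862, 5381 and 5615 in nub1 carcass (log2 fold change -0.49, not called).

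Genes of flight and jump muscle were higher in carcass in 5 of 5 cases (median -4.60; 3 passed through carcass alone). TpnC4, a troponin C of the flight muscle, had 19.7, 0.404 and 0.727 in nub1 gut, against 751, 867 and 891 in nub1 carcass (log2 fold change -5.82, SE 0.31, adjusted p = 1.19e-08), and flightin, a thick filament protein, had 11.6, 6.64 and 7.47 in nub1 gut, against 573, 838 and 751 in nub1 carcass (log2 fold change -5.29, SE 0.15, adjusted p = 2.34e-10). Act79B, an actin of the jump muscle, had 48.9, 14.9 and 12.5 in nub1 gut, against 636, 849 and 837 in nub1 carcass. Gut array 1 was the highest gut array for all 3 of these genes, and summed over the 5 genes the gut signals were 136, 47.9 and 47.1, against 2443, 3418 and 3166 in carcass. Muscle genes that visceral muscle also uses did not separate the tissues in 1 direction. Of 17, 2 were called higher in gut, 3 in carcass and 12 in neither (median -0.47). The gut count was 1 without gut array 1, gut array 3 or carcass array 1, and the carcass count was 5 without gut array 1. Mlp60A had 2949.9, 1813 and 2821 in nub1 gut, against 1064, 1342 and 1201 in nub1 carcass (log2 fold change 1.04), and Mlc1, a myosin light chain gene, read 1053, 622 and 969 in nub1 gut, against 779, 972 and 1008 in nub1 carcass. Strn-Mlck, for a giant kinase of the sarcomere, had 7.70, 2.11 and 1.33 in nub1 gut, against 171, 178 and 212 in nub1 carcass, at least 18.6-fold higher in carcass. Scp1, a sarcoplasmic calcium-binding protein, and SERCA, the sarcoplasmic calcium pump, were among the 15 largest carcass differences. SERCA had 59.7, 18.6 and 8.67 in nub1 gut, against 1072, 1191 and 1401 in nub1 carcass (log2 fold change -5.20, SE 0.41, adjusted p = 3.63e-07) by that probe set, while another 2 probe sets of the gene gave log2 fold changes of -1.35 and -0.20.

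Outside these lists, other genes among the 15 largest carcass differences were also brightest in gut on array 2. CG16826 had 2.05, 1656 and 63.4 in nub1 gut, against 3841, 4274 and 4375 in nub1 carcass (log2 fold change -5.19, SE 1.33, adjusted p = 0.00318), and Femcoat, a follicle cell gene of the eggshell, had 5.60, 44.4 and 9.08 in nub1 gut, against 818, 716 and 582 in nub1 carcass (log2 fold change -4.81, SE 0.78, adjusted p = 0.000125). CG13083, CG13084 and CG13947 had log2 fold changes of -5.18, -4.64 and -4.85, all with gut array 2 highest. Scp1 was brightest in gut on array 1, with 44.7, 36.2 and 15.4 in nub1 gut, against 1722, 1478 and 1747 in nub1 carcass (log2 fold change -5.37, SE 0.31, adjusted p = 2.44e-08).

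Fat body genes showed moderate carcass differences, with 5 of 8 tested genes called (median -1.45), and 2 of 10 measured genes, Fbp1 and Fbp2, below 10 on all 6 arrays. Lsp2, a storage hexamer, had 30.1, 40.0 and 22.3 in nub1 gut, against 728, 414 and 1009 in nub1 carcass (log2 fold change -4.09, SE 0.61, adjusted p = 6.52e-05). The lipoprotein gene apolpp had 295, 588 and 1001 in nub1 gut, against 2863, 2420.0 and 2531 in nub1 carcass (log2 fold change -2.20, SE 0.31, adjusted p = 4.48e-05), and its gut signals rank the gut arrays differently from the eggshell, with array 3 highest. Transferrin 1 read 876, 1554 and 1180.3 in nub1 gut, against 2719, 1846 and 1848 in nub1 carcass and was not called. Among blood cell genes, 1 of 7 was called (PPO2, log2 fold change -1.012), a call that ended without gut array 2, gut array 3, carcass array 1 or carcass array 3. Without gut array 1, 3 were called, and without carcass array 2, 2 were called. Hml read 40.2, 22.5 and 33.6 in nub1 gut, against 69.6, 58.3 and 68.6 in nub1 carcass. For neurons, 8 of 10 measured genes failed the minimum, and Gad1, for the enzyme that makes GABA, had 7.73, 0.376 and 9.19 in nub1 gut, against 39.1, 35.6 and 45.2 in nub1 carcass, at least 3.98-fold higher in carcass. Enzymes of cuticular hydrocarbon synthesis were called higher in carcass in 2 of 8 cases, FASN3 and Desat2, in 4 without gut array 1, and in 1 without gut array 2, gut array 3 or carcass array 3. Cyp4g1, the oenocyte decarbonylase, read 5496, 3585 and 4402 in nub1 gut, against 4810.4, 4828 and 5216 in nub1 carcass and was not called. Desat2 had 481, 252 and 329.7 in nub1 gut, against 680.2, 691 and 751 in nub1 carcass (log2 fold change -1.03), a call that ended without gut array 2 (-0.81), without gut array 3 (-0.9995) and without carcass array 3 (-0.98). In wt Desat2 read 30.1, 6.78 and 22.4 in gut and 14.7, 7.27 and 9.21 in carcass. Among 105 cuticle protein genes, 21 passed the minimum, 6 through gut alone and 3 through carcass alone. Of the 21, 5 were called higher in gut and 4 in carcass. The largest were Cpr51A in gut, with 312, 163 and 273 in nub1 gut, against 26.7, 24.9 and 23.8 in nub1 carcass, and Cpr66D in carcass, with 4.85, 14.1 and 7.63 in nub1 gut, against 59.8, 44.4 and 40.1 in nub1 carcass.

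Housekeeping groups had medians near 0, beside a median of -0.49 over all tested genes with 1 probe set a gene. Of 52 genes of the respiratory chain 1 was called, in carcass (median -0.14), namely ND-B8 with 1.68, 0.411 and 0.268 in nub1 gut, against 94.9, 78.6 and 64.5 in nub1 carcass. Of 31 tested ribosomal protein genes 2 were called, both higher in carcass (median 0.27). These were RpS5b, with 650.3, 2071 and 603 in nub1 gut, against 3045, 3348 and 3514 in nub1 carcass, and RpS19b, with 6.24, 2.73 and 5.18 in nub1 gut, against 22.9, 10.9 and 27.5 in nub1 carcass, each the second copy of its gene. The RpS19b call ended without gut array 2 (-0.91), without carcass array 1 (-0.93) and without carcass array 3 (-0.84), which left RpS5b. The gut arrays of RpS5b again had array 2 highest. Of the Hox and homeotic genes, Antp read 21.9, 14.1 and 20.7 in nub1 gut, against 10.7, 10.3 and 11.6 in nub1 carcass, and caudal, the posterior gut factor, read 509, 578 and 456 in nub1 gut, against 718, 704 and 666.2 in nub1 carcass. Neither was called.

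Immune effectors did not share a direction. Of 11 tested antimicrobial peptide genes, 5 were higher in gut, 3 in carcass and 3 in neither (median 0.28; 2 passed through gut alone). Defensin had 2939, 4034 and 4278 in nub1 gut, against 839.9, 539 and 196 in nub1 carcass (log2 fold change 3.02, SE 0.39, adjusted p = 2.19e-05), and drosomycin had 7722, 5998 and 7353 in nub1 gut, against 2939, 1446 and 1022 in nub1 carcass (log2 fold change 2.09, SE 0.32, adjusted p = 7.24e-05). Both were highest in carcass on array 1. Metchnikowin was higher in carcass, with 308, 1398 and 928 in nub1 gut, against 3277, 2688 and 1894 in nub1 carcass (log2 fold change -1.78, SE 0.52, adjusted p = 0.00696), with gut array 1 lowest in gut. Diptericin B spread widely in both tissues and overlapped, at 225, 1419 and 532 in nub1 gut, against 2240.2, 1527 and 862 in nub1 carcass (log2 fold change -1.35, not called). The drosomycin-like genes split, Drsl2 and Drsl3 to gut (log2 fold changes 2.63 and 2.51), and Drsl4 and Drsl5 to carcass (-2.14 and -2.42). Without gut array 2, or without carcass array 3, 5 genes rather than 3 were called in carcass. Among 6 tested peptidoglycan recognition proteins, the amidase genes PGRP-LB and PGRP-SC2, which degrade peptidoglycan and dampen the response, were higher in gut. PGRP-LB had 606, 547 and 573 in nub1 gut, against 75.4, 42.3 and 35.6 in nub1 carcass (log2 fold change 3.31, SE 0.19, adjusted p = 2.09e-08), and PGRP-SC2 had 6311, 3746 and 5744 in nub1 gut, against 499, 334 and 157 in nub1 carcass (log2 fold change 4.06, SE 0.33, adjusted p = 5.32e-07). PGRP-LA was also called in gut (log2 fold change 1.31). PGRP-SB1, which the study names as a negative regulator together with PGRP-LB and PGRP-SC2, went the other way and was called in carcass. It had 237, 638 and 489.6 in nub1 gut, against 2012, 1452 and 1076 in nub1 carcass (log2 fold change -1.78).

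Of 4 listed spermatheca genes, 3 were tested and 2 were called higher in gut, both of which passed the minimum through gut alone. Send1 and Send2 encode proteases secreted by the spermatheca, the sperm storage organ. Send1 had 2939, 2071 and 3390.0 in nub1 gut, against 4.04, 5.37 and 16.7 in nub1 carcass (log2 fold change 7.26, SE 0.23, adjusted p = 3.75e-10), and Send2 had 1228, 2057 and 2517 in nub1 gut, against 4.21, 50.7 and 0.754 in nub1 carcass (log2 fold change 6.47, SE 0.74, adjusted p = 8.64e-06). All nub1 gut arrays were above 1000 for both, while 4 of the 6 carcass values were below 10. In wt gut Send1 read 429, 477 and 508, and Send2 139, 118 and 939. For Send1 the difference from wt was called (1.87, SE 0.33, adjusted p = 0.00331 by limma). The labels and methods do not say with which sample the lower reproductive tract was taken. The nuclear receptor gene Hr39, which spermathecal cells need, read 50.7, 65.9 and 45.0 in nub1 gut, against 87.6, 78.0 and 80.8 in nub1 carcass, and lz was below 10 on every array.

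Transcripts of the male ejaculatory duct and bulb were uneven among the nub1 arrays of a group. Of 8 listed genes, 5 had a probe set of their own. Andropin, an antibacterial peptide of the ejaculatory duct, had 1056, 18.8 and 1692 in nub1 gut, against 1.59, 138 and 2.49 in nub1 carcass. Dup99B, a duct peptide that reaches the female in semen, had 444, 9.77 and 781 in nub1 gut, against 1.33, 86.0 and 5.02 in nub1 carcass. The probe set shared by Met75Ca and Met75Cb had 4016, 107 and 5642 in nub1 gut, against 13.1, 1026 and 34.7 in nub1 carcass. In each case gut arrays 1 and 3 were high, gut array 2 was far lower, and of the carcass arrays array 2 alone was raised. Spn77Bb, a serpin gene, had 567, 7.403 and 1119 in nub1 gut, against 1.80, 109 and 8.16 in nub1 carcass, and Obp51a, an odorant-binding protein gene, had 296, 5.24 and 611 in nub1 gut, against 0.339, 60.7 and 0.394 in nub1 carcass, in the same order. These 5 probe sets were the ones that stood apart, by at least 4-fold from both other arrays of the group, as low on gut array 2 and as high on carcass array 2. The ratio of gut array 3 to gut array 1 was 1.602 for Anp, 1.97 for Spn77Bb, 1.76 for Dup99B, 2.06 for Obp51a and 1.41 for the Met75 probe set, and that of gut array 3 to carcass array 2 lay between 5.50 and 12.3. On the wt arrays no signal of these probe sets exceeded 36.1.

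Testis and accessory gland genes were mostly below the minimum. Of 17 testis genes and 17 accessory gland genes measured, 16 of each failed the minimum, and the Sex Peptide gene SP read 1.05, 5.40 and 6.92 in nub1 gut, against 1.75, 5.35 and 4.35 in nub1 carcass. Mst98Ca, the tested testis gene, had 14.2, 11.5 and 25.3 in nub1 gut, against 7.83, 7.53 and 5.95 in nub1 carcass, and Acp95EF, the tested accessory gland gene, had 39.8, 17.6 and 43.4 in nub1 gut, against 37.6, 28.1 and 36.0 in nub1 carcass. Over the 5 duct and bulb genes the summed signal was 1553, 64.8 and 2746 in nub1 gut, against 17.4, 245 and 17.7 in nub1 carcass. Anp was called (log2 fold change 3.75, SE 1.31, adjusted p = 0.0186), yet its arrays overlapped between tissues, and the call ended without gut array 1, without gut array 3, without carcass array 1, without carcass array 3 and with the 6 nub1 arrays fitted alone. Glucose dehydrogenase, a gene of the duct and also of other epithelia, had 40.9, 27.7 and 46.5 in nub1 gut, against 13.1, 19.1 and 9.02 in nub1 carcass, with gut array 2 lowest in gut and carcass array 2 highest in carcass (log2 fold change 1.03, SE 0.20, adjusted p = 0.00053). The arrays did not overlap, and the call ended without gut array 1 (0.98), without gut array 3 (0.91), without carcass array 3 (0.88) and after quantile normalization (0.92), each on the log2 scale. Gut array 3 alone carried Ebp, EbpII, Obp56g and Sfp24Bb, of which Ebp had 7.53, 8.41 and 123 in nub1 gut, against 0.853, 1.15 and 0.671 in nub1 carcass. EbpII, like Ebp an ejaculatory bulb protein gene, had 4.49, 0.151 and 104 in nub1 gut, against 0.538, 0.333 and 0.537 in nub1 carcass. Obp56g had nub1 gut signals of 2.46, 17.2 and 187, and Sfp24Bb, a seminal fluid protein gene, of 2.88, 7.45 and 88.8, while neither reached 10 on a nub1 carcass array. The same array also stood apart for halo, at 4.75, 13.4 and 96.7 in nub1 gut, against 7.22, 5.26 and 5.02 in nub1 carcass, and for Z600, at 1.12, 1.16 and 36.7 in nub1 gut, against 0.644, 0.795 and 1.09 in nub1 carcass, which are genes of the early embryo.

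**Figure D3:**
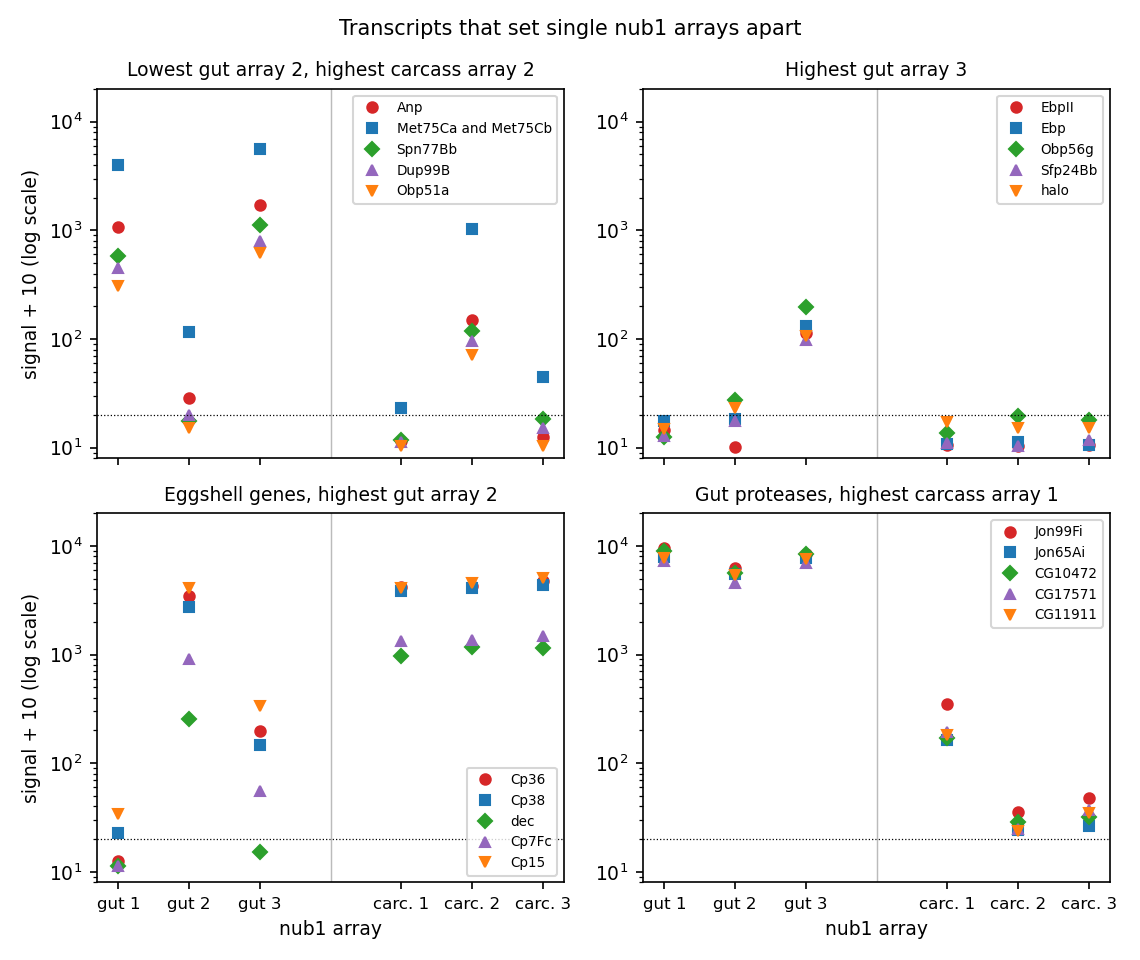
Signal + 10 on a log axis for each nub1 array (gut 1 to 3 on the left, carcass 1 to 3 on the right of each panel), 5 transcripts a panel. The dotted line marks a signal of 10. Duct transcripts are low on gut array 2 and raised on carcass array 2, another set appears on gut array 3 alone, eggshell genes climb on gut array 2, and the 5 proteases shown are highest in carcass on array 1. Over all 28 listed proteases, 12 were highest in carcass on array 1 and 13 on array 3.

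Counted over all probe sets, single nub1 arrays stood apart by at least 4-fold in few cases. Gut array 2 lay above both other gut arrays in 41 probe sets, of which 15 were eggshell genes, 40 were called higher in carcass and 40 had a gut array 2 signal below every carcass array. Gut array 2 lay below both others in 11 probe sets and gut array 1 in 17, of which 5 were eggshell genes. Gut array 3 stood above in 10 and below in 2. Carcass array 1 stood above in 13, of which 8 were called higher in gut, carcass array 2 in 6, and carcass array 3 in none. In wt, gut array 3 stood above in 34 probe sets, of which 8 were eggshell genes, and gut array 1 below in 13, of which 10 were. Summed eggshell signals of wt gut were 195, 12115 and 21359, so eggshell signals were uneven in wt gut too.

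**Figure D4:**
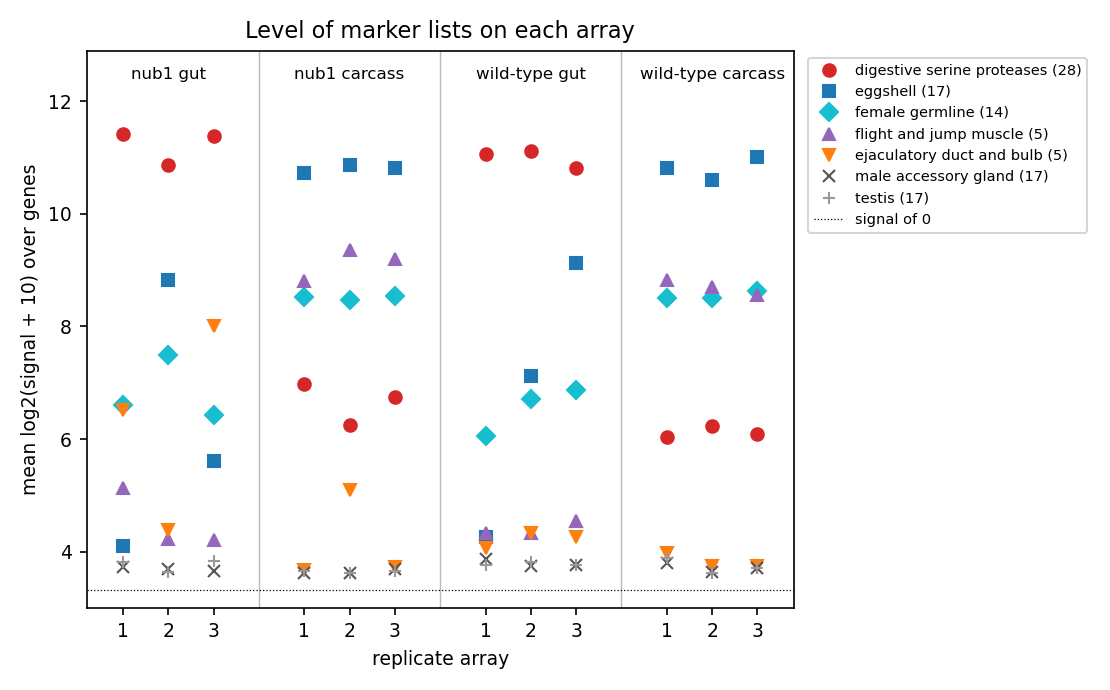
Mean log2(signal + 10) of the measured members of 7 lists (number in brackets) on each array, with the nub1 groups left of the wt groups. The dotted line is the value of a signal of 0. Eggshell and germline genes differ between gut arrays in both genotypes, with nub1 gut array 2 and wt gut array 3 highest for the eggshell. Accessory gland and testis genes stay close to the dotted line on all arrays.

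The tissue difference in nub1 was then set against that in wt, which rests on other arrays. Over 9201 probe sets tested in both genotypes, the log2 fold changes of gut over carcass correlated at 0.94, across probe sets that share probes and scaling. Of 1429 probe sets called higher in nub1 gut and tested in wt, 1242 were called the same way in wt (86.9% of the nub1 list and 82.6% of the 1503 in the wt list). Of 2123 called higher in nub1 carcass, 1563 were called the same way in wt (73.6% of the nub1 list and 72.0% of the 2171 in the wt list) and 3 the other way. The difference between genotypes was tested directly as the nub1 difference minus the wt difference. It was called higher in nub1 for 190 of 10199 probe sets (1.86%) and lower for 479 (4.70%), and with 1 probe set a gene for 161 (1.92%) and 407 (4.86%) of 8379. Of the 190, 184 met the signal minimum in a nub1 tissue, and of the 479, 301 did, while the others entered through wt alone. A probe set that entered through the gut of 1 genotype alone leans to that side, so these counts are partly set by the filter. In 147 of the 190 and 386 of the 479, the mean gut level differed more between genotypes than the mean carcass level. The same share over all tested probe sets was not counted, and the nub1 gut arrays spread more than the nub1 carcass arrays. These counts therefore do not place the genotype difference in 1 tissue.

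Genes of proteases and other enzymes were found on both sides of this test, and a digestive role of each was not tested. Ser12 had nub1 gut signals of 3873, 2890.5 and 3957, against 1.10, 18.7 and 64.3 in nub1 carcass, and in wt 11.4, 11.5 and 13.3 in gut and 2.60, 8.43 and 4.06 in carcass (difference of the log2 fold changes 6.38, SE 0.69, adjusted p = 0.000156). The protease gene CG1304 read 1253, 748 and 1021 in nub1 gut and 9.17, 2.74 and 6.03 in nub1 carcass, and was below 10 on all 6 wt arrays (6.15, SE 0.32, adjusted p = 1.03e-06). Amyrel, an amylase-related gene, had 1359, 717 and 896 in nub1 gut, against 21.1, 3.97 and 9.09 in nub1 carcass, and 17.6, 18.5 and 21.7 in wt gut, against 5.49, 6.43 and 2.82 in wt carcass (4.598, SE 0.39, adjusted p = 2.61e-05). Jon65Aii went the opposite way, with 155, 101 and 119 in nub1 gut, against 4.27, 9.25 and 8.05 in nub1 carcass, and 6421, 7033 and 5511 in wt gut, against 13.6, 15.5 and 18.1 in wt carcass (-4.98, SE 0.23, adjusted p = 4.34e-07). It was called higher in gut in both genotypes. LysX was likewise dimmer in nub1 gut, at 33.2, 19.5 and 35.2, against 1.46, 0.997 and 0.474 in nub1 carcass, and at 388, 607 and 487 in wt gut, against 46.4, 4.30 and 2.11 in wt carcass (-2.72, SE 0.64, adjusted p = 0.0159). Lip3, described above, read 11.004, 9.10 and 16.7 in wt gut and 1.41, 2.48 and 3.53 in wt carcass (4.65, SE 0.36, adjusted p = 1.36e-05). CG34040, CG30371, CG31636 and CG31468, genes without a firm role, had gut signals between 149 and 1150.4 in nub1, and their differences ranged between 3.71 and 4.56. Over the lists, 6 of 11 maltases and amylases had a higher difference in nub1 and none a lower one, and 2 of 28 proteases had a higher and 6 a lower one. Of the 32 glutathione S-transferases 8 were higher and 1 lower, and GstD8 had 553, 315 and 467 in nub1 gut, against 10.97, 14.2 and 19.0 in nub1 carcass, and 20.1, 25.5 and 25.0 in wt gut, against 5.25, 9.19 and 7.11 in wt carcass (3.21, SE 0.27, adjusted p = 2.71e-05). For P450 genes, 7 of 70 were higher and 7 lower.

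Among immune genes, gut-over-carcass values were lower in nub1 than in wt for some. Of 11 antimicrobial peptide genes, 5 had a lower difference than in wt and none a higher one. Drosomycin had a log2 fold change of 2.09 in nub1 and 4.07 in wt (-1.98, SE 0.45, adjusted p = 0.0132), with wt carcass signals of 247, 437 and 413, below each nub1 carcass array at 2939, 1446 and 1022. Drsl5 had 18.5, 17.6 and 63.0 in nub1 gut, against 237, 169 and 188 in nub1 carcass, and close levels in both wt tissues, at 278, 224 and 281 in gut and 239.8, 239 and 235 in carcass (-2.54, SE 0.42, adjusted p = 0.00238). For AttD, attacin D, nub1 signals were 60.7, 175 and 77.9 in nub1 gut, against 153, 113 and 21.8 in nub1 carcass, and wt signals 225, 91.9 and 307 in gut and 11.6, 7.87 and 15.9 in carcass (-2.90, SE 0.82, adjusted p = 0.0368). CG18628, a gene without a firm role, was bright in gut of both genotypes, but read 265, 379 and 375 in nub1 carcass and 0.451, 4.52 and 0.517 in wt carcass (-5.11, SE 0.28, adjusted p = 1.3e-06).

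Among cuticle protein genes, most calls of this test lay on the lower side. Of 45 cuticle protein genes tested, 19 had a lower difference in nub1 and 1 a higher one (Cpr62Ba). Only 21 of them met the signal minimum in a nub1 tissue, and the others entered through wt alone. A gene that entered through wt gut alone leans to a lower difference by that rule, so the count is partly set by the filter. The chitinase-like gene Cht9, of the gut lining list, read 23.9, 9.19 and 24.8 in nub1 gut, against 5.97, 2.94 and 1.22 in nub1 carcass, and 1449.8, 1160.3 and 1263 in wt gut, against 27.0, 23.0 and 13.0 in wt carcass (-4.32, SE 0.34, adjusted p = 1.55e-05). TwdlM, a Tweedle cuticle protein, had 2.997, 2.64 and 11.2 in nub1 gut, against 6.39, 5.26 and 11.05 in nub1 carcass, below the minimum in nub1, and in wt 194, 239 and 294 in gut and 6.90, 6.16 and 2.44 in carcass (-4.25, SE 0.32, adjusted p = 1.13e-05). Osi15, of the Osiris family of cuticle-forming cells, was below 1 on all 6 nub1 arrays and read 423, 727 and 267 in wt gut and 0.852, 0.209 and 0.214 in wt carcass (-5.39, SE 0.37, adjusted p = 4.89e-06). CG13159, CG2962 and nur likewise were below 40 on every nub1 array, and between 509 and 1406 in wt gut. Osi19 was the one gene among the 8 largest lower differences with a carcass call in nub1, with 2.53, 2.27 and 5.33 in nub1 gut, against 22.7, 34.4 and 26.9 in nub1 carcass (log2 fold change -1.502), and with 115, 188 and 84.4 in wt gut and 1.72, 4.18 and 2.97 in wt carcass. The Hox gene Dfd, of anterior identity, read 1.12, 4.65 and 2.93 in nub1 gut and 22.2, 16.6 and 13.4 in wt gut. Antp read 21.9, 14.1 and 20.7 in nub1 gut and 67.5, 50.7 and 46.9 in wt gut. How much of the fore part of the gut each sample held was not measured, and its part in these values was not tested.

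**Figure D5:**
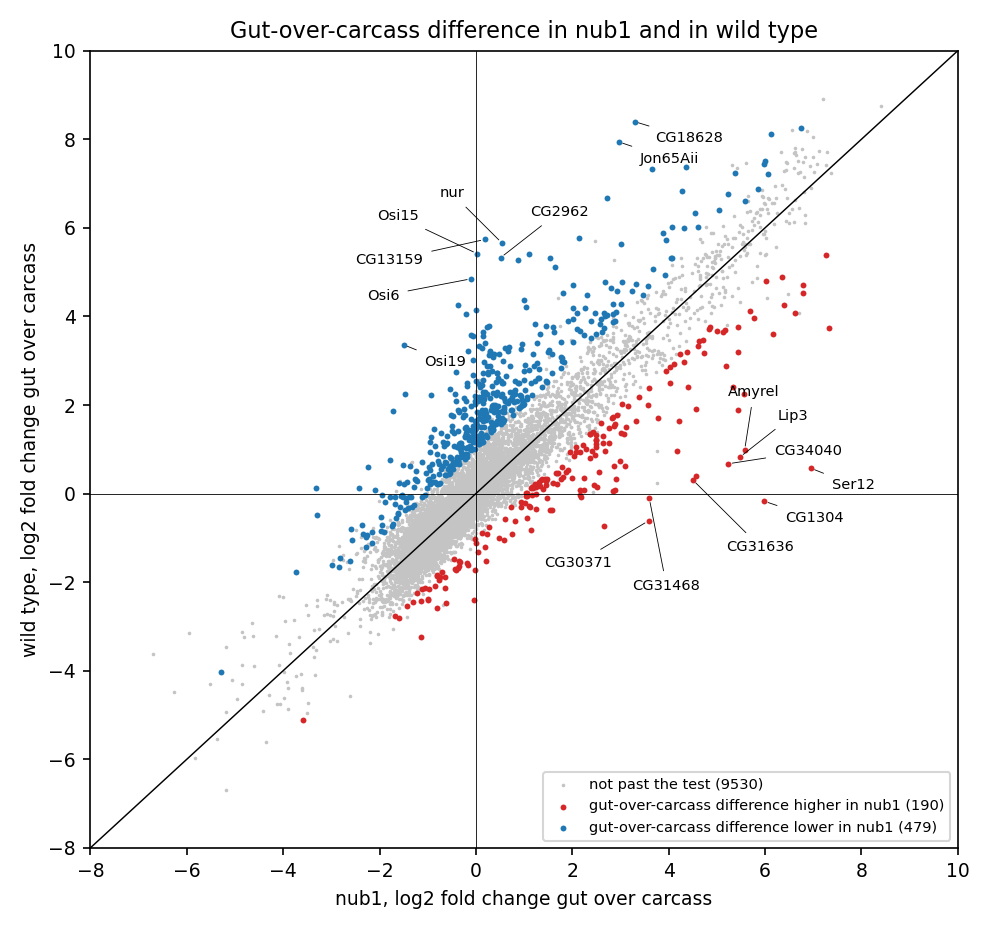
Log2 fold change of gut over carcass in nub1 (x axis) and in wt (y axis) for 10199 probe sets, with the diagonal of equal differences. Red points have a higher difference in nub1 (190), blue points a lower one (479), and the 8 largest named genes of each side are labelled. Most probe sets follow the diagonal, and CG1304 and Ser12 lie near 0 in wt but above 5 in nub1, while CG13159 and nur lie near 0 in nub1 but above 5 in wt.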

How the data were processed

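RNA from 3 independent pools of 20 females per group was hybridised to Affymetrix Drosophila Genome 2.0 arrays. The deposited table holds intensity values on a linear scale, made by the authors with the MAS5 algorithm in Affymetrix Expression Console (version not given in the sources used here). After trimming 2% at either end, every array had the same mean. Of 18952 probe sets, 183 controls were left out. Of the other 18769, 13647 carried 1 gene (13544 named through RefSeq and 103 by the platform table alone), 402 carried several and 4720 none, and only those with 1 gene were named, except the probe set shared by Met75Ca and Met75Cb.

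All 12 arrays were fitted as 4 groups in 1 linear model on log2(signal + 10) with limma 3.58.1 in R 4.3.3 (moderated variances with an intensity trend, 8 residual and 3.66 prior degrees of freedom), and p-values were adjusted by Benjamini-Hochberg over all probe sets tested. A fold is on the log2(signal + 10) scale and understates the change of dim genes. The difference from wt was a contrast in the same fit, tested where any group had a signal of at least 10 on all 3 arrays. Gene lists used 1 probe set a gene, that with the highest mean signal, and were described by counts and medians without a test. Array number limits the precision, and an exact permutation test of 3 against 3 arrays cannot go below p = 0.1.

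Named genes were the 15 largest called changes in each direction without overlap, up to 4 called members of each list with the largest changes and its markers, up to 8 genes standing apart on each array, and the 8 largest differences from wt in each direction. Members of lists that did not pass the test were named for contrast after their values were seen. The groups compared and the gene lists were chosen with earlier results of these data known. On simulated data with the signals of these arrays, the fit called 94 of 100 probe sets changed by a log2 of 2, 93 of 100 changed by 1.5, and 1 of 9236 unchanged ones. The simulated noise was independent between probe sets and had the same SD in all groups. It held neither the wider spread of the gut arrays nor shifts that many probe sets share on 1 array. These counts therefore do not measure the false calls in the data themselves.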

Additional observations from a re-analysis of the deposited data

Results flagged for a closer look

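For 190 probe sets the gut-over-carcass difference was called higher in nub1 than in wt and for 479 it was called lower, by a test of the difference itself in limma. Of these, 184 and 301 met the signal minimum in a nub1 tissue, and the others entered through wt alone, so the counts are partly set by the filter. Of the named genes with the largest differences, the higher ones were Ser12 (6.38 on the log2 scale), CG1304 (6.15), Lip3 (4.65), Amyrel (4.598), CG34040 (4.56), CG30371 (4.20), CG31636 (4.19) and CG31468 (3.71). In all 8 the nub1 gut arrays lay above the wt gut arrays, an order that the choice of genes favours. CG1304, Lip3, CG34040, CG31636 and CG31468 did not meet the signal minimum in either wt tissue and were tested through nub1 gut. The lower ones were CG13159 (-5.55), Osi15 (-5.39), nur (-5.12), CG18628 (-5.11), Jon65Aii (-4.98), Osi6 (-4.95), Osi19 (-4.86) and CG2962 (-4.81). Of these, CG13159, Osi15, nur, Osi6 and CG2962 did not meet the signal minimum in either nub1 tissue and were tested through wt gut. For CG18628 the carcass differed more between genotypes than the gut.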

How the results depend on the processing

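Counts of calls in gut, in carcass and for the difference from wt stayed within 1.5 times their values under most alternatives. A pseudocount of 32 gave 1324 probe sets higher in carcass rather than 2146, and 264 with a lower difference in nub1 than in wt rather than 479. Without nub1 gut arrays 1 and 3, 896 were higher in carcass and 365 had a higher difference rather than 190. Leaving out single arrays gave 1427 to 1621 probe sets higher in gut, 1790 to 2662 higher in carcass, 161 to 258 with a higher and 385 to 532 with a lower difference. Leaving out nub1 gut array 2 with wt gut array 3, an alternative chosen after seeing the data, gave 257 and 533. The methods' t-test called 1465 in gut and 2099 in carcass at its looser threshold, 1403 and 1533 at its stricter one, and 1463 and 2066 after Benjamini-Hochberg, with 9 of the 17 eggshell genes.

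The labels do not say whether same-numbered gut and carcass arrays came from the same flies. Same-numbered arrays had deviations from their group means that correlated at -0.030, 0.158 and 0.029 in nub1 and at 0.031, -0.045 and 0.176 in wt. Such correlations over all tested probe sets cannot show whether flies were shared. With the replicate number as a block, 1475 probe sets were called higher in gut, 2144 in carcass, 186 with a higher and 458 with a lower difference from wt.

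Of 1188 list counts under the alternatives 82 moved by over 1.5 times, and of 2120 values of named genes 71 lost their call. Malpighian tubule genes fell to 6 calls with a pseudocount of 32 and without gut arrays 1 and 3. Yolk genes had 4 calls after quantile normalization, and 1 without gut array 1 or without carcass array 3, rather than 2. Blood cell genes had between 0 and 3 calls. Of 352 differences from wt 5 lost their call, all of Osi6 (adjusted p = 0.0229 by limma on all arrays). The median of the antimicrobial peptide genes was -0.13 without gut array 2 and -0.44 without carcass array 3, rather than 0.28. No called gene value changed sign under the alternatives run. The cause of these changes was not tested. A planned survey of promoter motifs was not run. Signals below 10 carry little information on level.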
